A study of Oryza sativa with 14 samples.

Results

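The RNA of 10 genes of inorganic phosphate (Pi) transport and signalling was followed in rice (Oryza sativa) seedlings. They were taken by their locus identifiers from the 38978 genes of an RNA-seq expression table, and all 10 members were found there. The members are the 5 phosphate transporter genes PT1 (Os03g0150600), PT2 (Os03g0150800), PT4 (Os04g0186400), PT6 (Os08g0564000) and PT8 (Os10g0444700), the 4 regulator genes PHR2 (Os07g0438800), PHO2 (Os05g0557700, listed in the table under its other name LTN1), SPX1 (Os06g0603600) and SPX2 (Os02g0202200), and the noncoding RNA gene IPS1 (Os03g0146800). Wild type (WT) plants of the cultivar Kitaake were compared with osnat10, a line named after N-acetyltransferase 10, the enzyme that acetylates cytidine in RNA. Each genotype had 3 biological replicates of whole seedlings, and both genotypes shared the same Yoshida nutrient solution, with a 10 h day and a 14 h night. The labels give neither the kind of allele in osnat10, nor the number of lines or of plants per library, nor the phosphate content of the solution. The transcript of the targeted gene and the 8 acRIP-seq libraries of the study were not analysed here.

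Plants take up Pi through proton-coupled transporters of the PHT1 family, to which the PT genes belong. In rice, the MYB-CC transcription factor PHR2 activates starvation genes, and SPX1 and SPX2 bind PHR2 and hold it back when Pi is plentiful. PHO2 encodes a ubiquitin-conjugating enzyme that limits phosphate uptake and transfer to the shoot, and its transcript is cut by the microRNA miR399. IPS1 RNA carries a site that pairs with miR399 without being cut, so that it sequesters the microRNA, and IPS1 is widely used as a marker of Pi starvation.

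All members but PT6, 9 of the 10, were detected in both genotypes, taking as detected a gene with at least 1 read in every library of a genotype and a mean of 0.5 RPKM or more. RPKM is the authors' read count scaled by gene length and library size, so levels can be set side by side between genes. Whole reads could be recovered from the RPKM steps, and the 6 libraries held 13688629 to 15583776 reads. PT6, a high-affinity transporter known from rice roots and shoots, had 4, 2 and 0 reads in the WT libraries, against 11, 0 and 3 reads in those of osnat10. A count of 0 allows up to 3 reads in such a library, counting error only, so PT6 lay at the edge of what this depth shows and was not tested. SPX2 with 194 reads and PT4 with 365 reads over the 6 libraries were the other sparsely read members, and PHO2 had the most reads, 14471. The detection of PT4 in WT rested on WT replicate 1, at 1.81 RPKM. WT replicates 2 and 3, at 0.193 and 0.0835 RPKM, were each under 0.5, so without WT replicate 1 PT4 did not meet the rule in WT. SPX2 met the rule in osnat10 only just, with a mean of 0.504 RPKM. With median of ratios scaling of the libraries that mean was 0.479, under the threshold. WT replicate 1 stood apart from the other WT libraries in many genes and had the lowest library weight in limma, 0.271, so results that rest on it are given with and without it. Where 3 values of a genotype are listed, they are those of replicates 1, 2 and 3 in that order.

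The 5 transporters kept one order in each of the 6 libraries, with PT1 highest, then PT8, PT2, PT4 and PT6. PT1 and PT8 differed by 2.31-fold, 2.16-fold and 3.86-fold in WT replicates 1, 2 and 3, and by 1.16-fold to 1.44-fold in the osnat10 libraries. Across all libraries the mean RPKM was 31.3 for PHR2, 29.9 for PHO2, 28.7 for PT1, 18.5 for SPX1, 15.2 for PT8, 13.1 for IPS1, 5.13 for PT2, 1.36 for SPX2 and 1.12 for PT4. With both genotypes pooled, the neighbours at the top of this order, PHR2, PHO2 and PT1, did not differ beyond their spread over libraries. Within osnat10, PHR2 stood above the other 2 in every library. The osnat10 means were 30.7 ± 2.13 RPKM for PHR2, 19.3 ± 1.29 for PHO2 and 21.1 ± 0.933 for PT1 (SD, n = 3). PHO2 stood above PHR2 in WT replicates 2 and 3 and below it in the other 4 libraries.

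**Figure D1:**
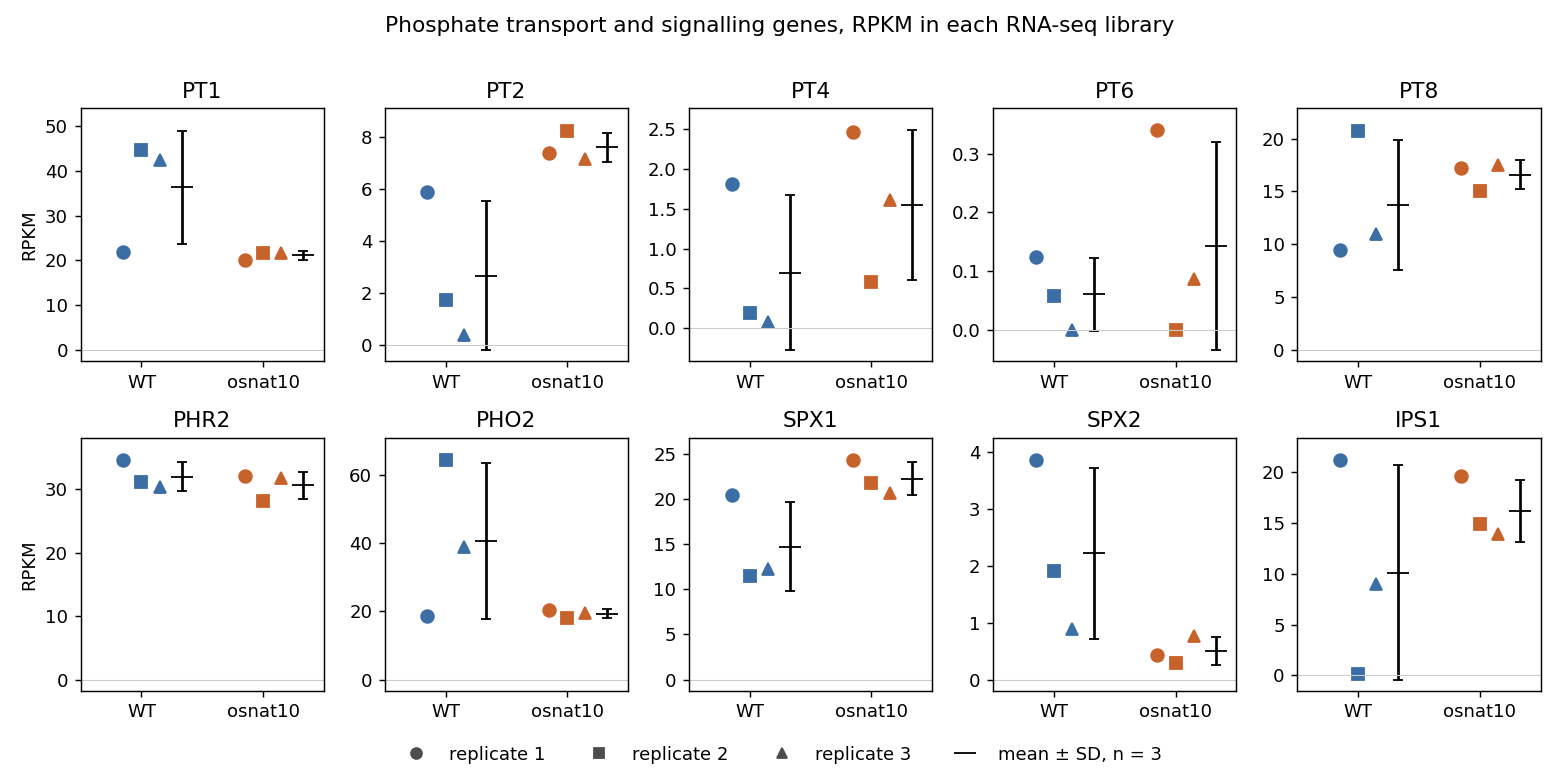
RPKM (vertical axis of each panel, starting at or just below 0) of the 10 genes in the 3 WT (blue) and 3 osnat10 (orange) libraries, with marker shapes for replicate numbers and black bars for the mean and SD. For PT1, PT2, PHO2 and SPX1 the circle of WT replicate 1 lies near the osnat10 points and away from the other WT points.

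In the comparison of osnat10 with WT, the osnat10 libraries held less RNA of PT1, PHO2 and SPX2 on average and more of PT2, SPX1, PT4, PT8 and IPS1. For PT4, PT8, PHR2, PHO2 and IPS1 the difference in means was smaller than the SD of the WT libraries. In such bulk samples, fewer cells of a type and less RNA per cell cannot be told apart. With limma (linear models across all 24380 tested genes, on log2(RPKM + 0.5), Benjamini-Hochberg adjustment), 0 of the 9 tested members were called at an adjusted p under 0.05, against 0.152% of all tested genes. At an unadjusted p under 0.05 there were 4 members, PT1, PT2, SPX1 and SPX2, against 19.2% of all tested genes. The same 4 members did not overlap between genotypes, against 25.0% of all tested genes. PT1 and SPX2 were lower in every osnat10 library, against 7.79% of all tested genes, and PT2 and SPX1 were higher in every one, against 17.2%. The median log2 fold change was 0.35 over the 9 members and 0.11 over all tested genes, with 5 members positive and 4 negative. Limma's voom on recovered reads also called 0 members, against 21 of the 24380 tested genes. It had 5 members at an unadjusted p under 0.05, against 4777 of the 24380 tested genes.

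Among the transporters, PT1, which carries Pi at ordinary supply in rice, had 21.9, 44.7 and 42.4 RPKM in the WT libraries, against 20.0, 21.7 and 21.6 in those of osnat10. Every WT library was above every osnat10 library, but WT replicate 1 exceeded the highest osnat10 library only slightly. The means were 36.3 ± 12.6 and 21.1 ± 0.933 RPKM (SD, n = 3 per genotype), and the log2 fold change was -0.70 (SE 0.27, limma adjusted p = 0.22). Without WT replicate 1 it was -1.03 (SE 0.12, limma adjusted p = 0.0064), a fit that keeps only the higher WT values.

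PT2, a low-affinity transporter that is induced by Pi starvation in rice, gave 5.89, 1.73 and 0.383 RPKM for WT, whereas the osnat10 libraries held 7.39, 8.24 and 7.16. All osnat10 libraries lay above all WT libraries, and the WT libraries were spread 15.4-fold from lowest to highest, against 1.15-fold in osnat10. The means were 2.67 ± 2.87 and 7.59 ± 0.567 RPKM (SD, n = 3), a 2.85-fold ratio of osnat10 to WT. The log2 fold change was 1.80 (SE 0.63, limma adjusted p = 0.19). Without WT replicate 1, which leaves only the lower WT values, it was 2.53 (SE 0.39, limma adjusted p = 0.014). Without WT replicate 3, the lowest library, it was 1.10 (SE 0.43, limma adjusted p = 0.19). PT1 and PT2 have 1 gene between them on chromosome 3 in RefSeq's assembly ASM3414082v1, and their log2 fold changes had opposite signs. The PT1 to PT2 ratio of RPKM was 3.71, 25.9 and 111 in the WT libraries, against 2.71, 2.63 and 3.01 for osnat10.

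PT4, a further Pi uptake transporter of rice, was at 1.81, 0.193 and 0.0835 RPKM for WT, with 2.46, 0.582 and 1.60 for osnat10. WT replicate 1 lay inside the osnat10 range, and WT replicates 2 and 3, with 11 and 5 reads, lay below it. The log2 fold change was 0.95 (SE 0.59, limma adjusted p = 0.42). On recovered reads limma's voom gave 2.105 (adjusted p = 0.29), the highest estimate of the alternatives run. Without WT replicate 1 the log2 fold change was 1.57 (limma adjusted p = 0.073). With a pseudocount of 0.1 it was 1.62 and without WT replicate 3 it was 0.58, so its size depended on these settings at this depth.

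PT8, a high-affinity transporter expressed in roots and shoots of rice, had WT values of 9.45, 20.7 and 11.0 RPKM and osnat10 values of 17.2, 15.1 and 17.5. The genotypes overlapped, and here WT replicate 2 was the high library while WT replicate 1 was the lowest of all. The log2 fold change was 0.35 (SE 0.29, 95% interval -0.32 to 1.01, limma adjusted p = 0.55). Leaving out WT replicate 2 gave 0.68 and leaving out WT replicate 1 gave 0.13.

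Among the regulators, PHR2 was the steadiest member, with WT values of 34.6, 31.2 and 30.3 RPKM and osnat10 values of 32.0, 28.2 and 31.8. Its means were 32.0 ± 2.25 and 30.7 ± 2.13 RPKM (SD, n = 3), and the genotypes overlapped. The log2 fold change was -0.06 (SE 0.15, limma adjusted p = 0.86), with a 95% interval of -0.40 to 0.28.

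PHO2, the ubiquitin-conjugating enzyme gene, had 18.6, 64.2 and 38.7 RPKM in the WT libraries, against 20.5, 18.0 and 19.6 in those of osnat10. WT replicate 1 lay inside the osnat10 range, and WT replicates 2 and 3 lay above it. The means were 40.5 ± 22.9 and 19.3 ± 1.29 RPKM (SD, n = 3), and the log2 fold change was -0.88 (SE 0.39, limma adjusted p = 0.27). Without WT replicate 1, which leaves only the higher WT values, it was -1.35 (SE 0.22, limma adjusted p = 0.016), and without WT replicate 2 it was -0.47. The ratio of PHO2 to PHR2 RPKM was 0.538, 2.06 and 1.28 in the WT libraries. It was 0.640, 0.636 and 0.617 for osnat10, where it hardly varied.

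SPX1, the starvation-inducible repressor of PHR2, gave 20.4, 11.5 and 12.2 RPKM for WT, whereas the osnat10 libraries held 24.3, 21.8 and 20.7. All osnat10 libraries lay above all WT libraries, with WT replicate 1 just under the lowest of them. The means were 14.7 ± 4.96 and 22.2 ± 1.83 RPKM (SD, n = 3), and the log2 fold change was 0.62 (SE 0.24, limma adjusted p = 0.21). Without WT replicate 1 it was 0.88 (SE 0.14, limma adjusted p = 0.015), a fit that keeps only the lower WT values. Leaving out WT replicate 2 or 3 gave 0.47 and 0.52 (limma adjusted p = 0.40 and 0.29).

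SPX2, its relative, had the opposite sign, with WT values of 3.86, 1.92 and 0.891 RPKM and osnat10 values of 0.439, 0.296 and 0.776. Every WT library lay above every osnat10 library, by a small margin for WT replicate 3. These rest on 88, 47 and 23 reads for WT, with 10, 7 and 19 for osnat10. The means were 2.22 ± 1.51 and 0.504 ± 0.247 RPKM (SD, n = 3), a 4.41-fold ratio of WT to osnat10, and the log2 fold change was -1.31 (SE 0.43, limma adjusted p = 0.17). Among the members without overlap, SPX2 alone had WT replicate 1 farthest of the WT libraries from the osnat10 mean, and without that library its log2 fold change was -0.90 (limma adjusted p = 0.16). The ratio of SPX1 to SPX2 RPKM was 5.30, 6.01 and 13.7 in the WT libraries, against 55.3, 73.6 and 26.6 for osnat10, a separation that follows from that of the 2 genes.

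The noncoding IPS1 had WT values of 21.2, 0.186 and 9.02 RPKM, from 212, 2 and 102 reads, and osnat10 values of 19.6, 14.9 and 13.9 RPKM. IPS1 was therefore read in every library, but WT replicate 2 held almost none while WT replicate 1 was the highest of all 6. The genotypes overlapped. The log2 fold change was 1.66 (SE 1.10, limma adjusted p = 0.45), and it was 0.20 without WT replicate 2 and 2.69 without WT replicate 1 (limma adjusted p = 0.83 and 0.13). The library with almost no IPS1, WT replicate 2, was also the library with the most PHO2. Within WT the genes ran in opposite order, whereas in osnat10 replicate 1 held the most of both. A link between them was not tested.

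The authors' deposited table, with the column names of DESeq2, gave an adjusted p for 9 members. The authors' deposited table called 3 of these lower in osnat10 at an adjusted p under 0.05, against 3.79% of its genes, and 0 higher, against 2.42%. In the authors' deposited table the log2 fold change was -0.86 for PT1 (SE 0.26, adjusted p = 0.025), -1.13 for PHO2 (SE 0.37, adjusted p = 0.037) and -2.31 for SPX2 (SE 0.71, adjusted p = 0.025). For PT2 the authors' deposited table gave 1.31 (SE 0.74, adjusted p = 0.33), for SPX1 0.45 (SE 0.33, adjusted p = 0.50) and for IPS1 0.47 (SE 1.37, adjusted p = 0.91). The signs were those of the limma estimates for these 6 members, and the call of the 3 lower members was made in that table and not in limma.

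**Figure D2:**
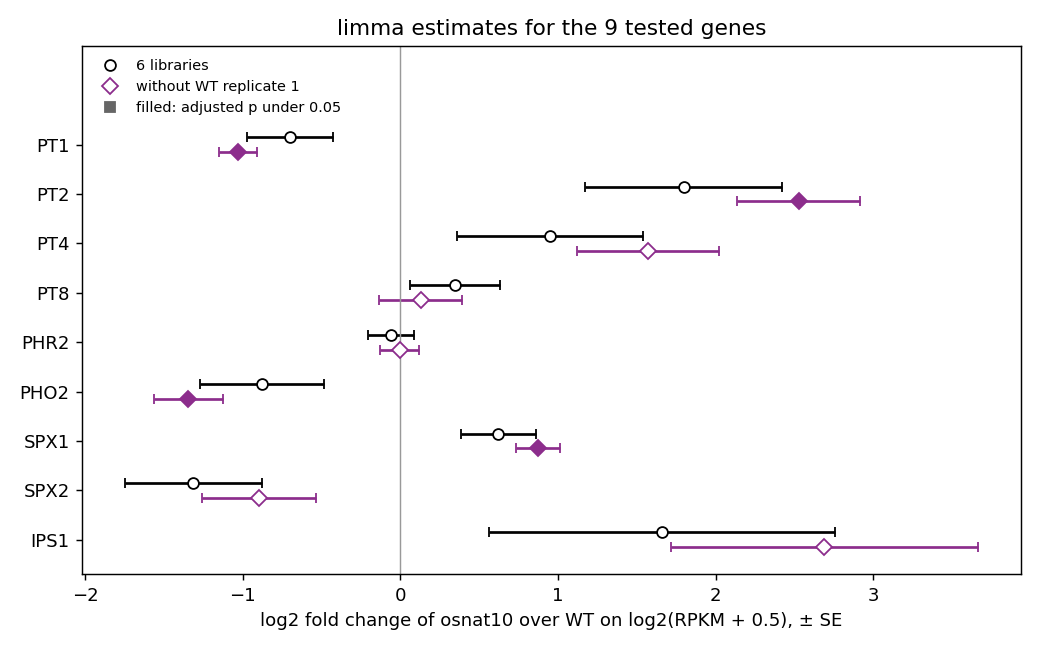
Limma log2 fold change of osnat10 over WT (horizontal axis, on log2(RPKM + 0.5), bars show the SE) for the 9 tested members, with all 6 libraries (black circles) and without WT replicate 1 (purple diamonds). Filled symbols have an adjusted p under 0.05, and they appear for PT1, PT2, PHO2 and SPX1 without WT replicate 1 and for 0 members with all libraries.

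The WT libraries differed from each other more than the osnat10 libraries did. The ratio of the highest to the lowest library was wider in WT for all 9 members with reads in every library, against 78.5% of genes. On log2(RPKM + 0.5), WT replicate 1 was the WT library nearest to the osnat10 mean for 6 of the 9 tested members, PT1, PT2, PT4, PHO2, SPX1 and IPS1, against 36.2% of all tested genes. WT replicate 3 was nearest for PHR2 and SPX2, against 37.5% of all tested genes, and WT replicate 2 for PT8, against 26.3%. Without WT replicate 1, limma called 4 members, against 11.1% of all tested genes. PT1 and PHO2 were called lower, against 4.84%, and PT2 and SPX1 higher, against 6.28%. In that comparison 7 members did not overlap, against 46.9%. Limma with library quality weights called PT1 (adjusted p = 0.041) and PT2 (adjusted p = 0.034), against 5.55% of all tested genes.

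**Figure D3:**
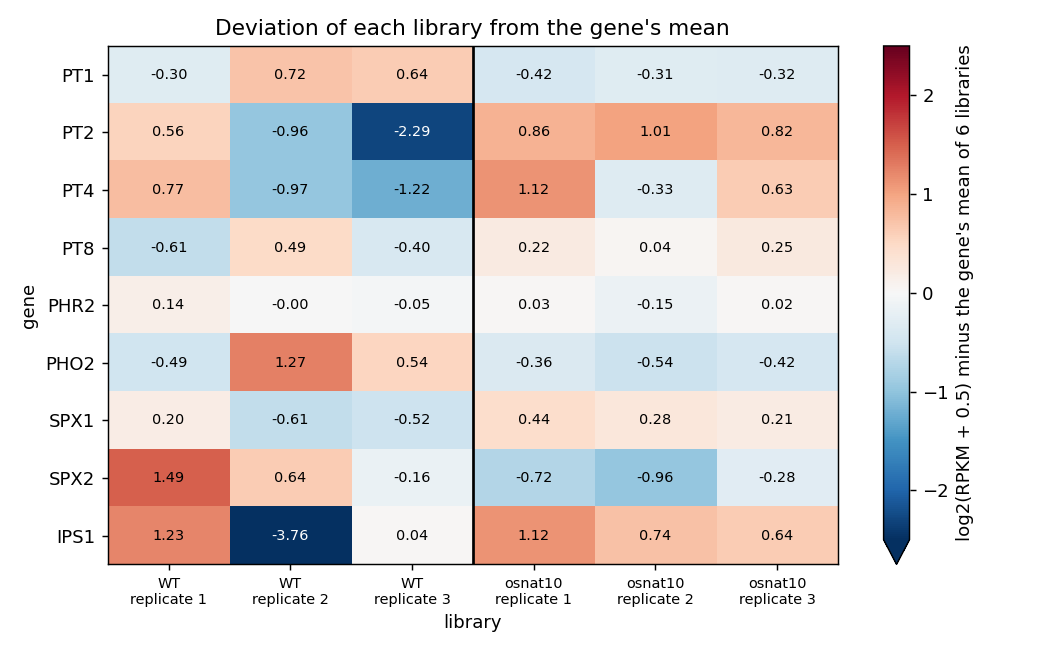
Log2(RPKM + 0.5) of the 9 tested members (rows) in each library (columns), minus the gene's mean over 6 libraries, with red above and blue below that mean. The column of WT replicate 1 has the same sign as the osnat10 columns for PT1, PT2, PHO2, SPX1 and IPS1, and the opposite sign for PT8 and SPX2; the darkest cell is IPS1 in WT replicate 2 at -3.76.

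Markers of leaf and root were set beside these values, because whole seedlings hold both organs and phosphate transporters are known from roots. The 21 leaf genes were matched by words for light-harvesting and Rubisco small subunit genes, and they include the photosystem I subunit gene PSAH. They summed to 32206, 10095 and 5793 RPKM in the WT libraries, against 10679 to 12711 for osnat10. A few Rubisco genes carry much of that sum. The median log2(RPKM + 0.5) of the 21 genes was 10.06, 5.95 and 5.56 in the WT libraries, against 8.30 to 8.51 for osnat10. On this median WT replicate 1 lay above the osnat10 libraries and was the WT library nearest to them, and WT replicates 2 and 3 lay well below them. On the sum, WT replicate 2 was the nearest and WT replicate 1 the farthest. The light-harvesting gene CAB2R had WT values of 1992, 22.3 and 24.8 RPKM and osnat10 values of 665, 477 and 641. Not all leaf genes followed it. RbcS1 was lowest in WT replicate 1, with WT values of 4.01, 4.36 and 21.3 RPKM. The Rubisco gene Os12g0292400 was highest in WT replicate 2, with WT values of 441, 558 and 328 RPKM. The 6 root genes RCc3, RCc2, LSI1, LSI2, OsNAS1 and NRT2.1 summed to 1190, 1195 and 786 RPKM in the WT libraries, against 1720 to 1981 for osnat10, with no marker at 0 in any library. Their median log2(RPKM + 0.5) overlapped between genotypes, at 7.06, 7.72 and 6.78 for WT, with 7.04, 6.85 and 7.25 for osnat10. RCc3, RCc2 and OsNAS1 were higher in every osnat10 library, against 17.2% of all tested genes, while LSI1, LSI2 and NRT2.1 overlapped. NRT2.1, a high-affinity nitrate transporter gene of roots, had the same order in WT as PT2, at 39.9, 1.04 and 0.338 RPKM, and osnat10 values of 61.7, 30.9 and 93.7. LSI1 and LSI2, the root silicon transporter genes, were highest in WT replicate 2, at 291 and 181 RPKM. The part of these markers in the members' differences was not tested.

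The rest of the pathway was read from 5 lists of annotated genes, 83 genes in all without the members, of which 61 were tested. Limma called 0 of the 61 in either direction, against 0.152% of all tested genes, with 17 of the 61 at an unadjusted p under 0.05, against 19.2% of all tested genes. There were 42 of 61 with a positive log2 fold change, against 59.9% of all tested genes. Their median log2 fold change was 0.31, against 0.11 over all tested genes. The signs and medians of the single lists below are to be read against the same 59.9% and 0.11. Without WT replicate 1, limma called 15 of the 61, against 11.1% of all tested genes, and without WT replicate 3 it called 2, OsPT15 and the purple acid phosphatase gene OsPAP7, against 4.04%. OsPAP7 had WT values of 0.128, 0.556 and 22.2 RPKM and osnat10 values of 8.30, 11.8 and 14.1, so the library left out was its highest (limma adjusted p = 0.34 with all libraries). Of these lists, the authors' deposited table called 4 genes higher (OsPT15, OsPT17, OsPAP23 and OsPAP3a) and 2 lower (CK2beta3 and OsSPX-MFS3), of 69 with an adjusted p there, against 2.42% and 3.79% of its genes. OsPAP7 and OsPAP3a were picked out after their values were seen, and OsPAP3a did not reach the filter on RPKM.

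Of the 16 tested genes annotated with phosphate transport, 11 had a positive and 5 a negative log2 fold change (median 0.42), and 0 were called. The 3 smallest p-values belonged to OsPT15, OsPT16 and OsPT17, annotated as mitochondrial phosphate transporters, which bring Pi to ATP synthesis. OsPT15 had WT values of 108, 83.7 and 96.9 RPKM and osnat10 values of 175, 207 and 202, without overlap (log2 fold change 1.02, SE 0.17, limma adjusted p = 0.066, and 0.0085 without WT replicate 1). For OsPT15, WT replicate 1 was the highest WT library and still well under the osnat10 range. OsPT16 and OsPT17 had log2 fold changes of 0.65 and 0.73 (limma adjusted p = 0.14 and 0.12). OsPT18 and OsPT19, with the same annotation and picked out after their values were seen, had 0.40 and 0.44 (limma adjusted p = 0.33 and 0.38). CK2beta3, the kinase subunit gene that regulates phosphate transporters, gave 54.9, 95.5 and 84.0 RPKM for WT, with 55.5, 47.8 and 52.0 for osnat10, the same library order as PT1 within WT. OsPT3, the neighbour of PT8 on chromosome 10 in that assembly, and OsPT12, the neighbour of PT1, did not reach the filter of 0.5 RPKM in at least 3 libraries.

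Of the 6 tested SPX domain genes, 4 were positive and 2 negative (median 0.39), and 0 were called. OsSPX-MFS3, of the SPX-MFS family of vacuolar phosphate carriers, had WT values of 24.0, 42.4 and 29.3 RPKM and osnat10 values of 18.5, 17.8 and 18.9, without overlap (log2 fold change -0.74, SE 0.22, limma adjusted p = 0.14). OsSPX5 had the same order within WT as PT2 but overlapped between genotypes, with 2.30, 0.714 and 0.407 RPKM for WT, against 3.33, 2.17 and 1.81 for osnat10 (limma adjusted p = 0.28). OsSPX4, another SPX repressor of phosphate signalling in rice, had means of 19.5 ± 2.55 RPKM for WT and 18.1 ± 2.02 for osnat10 (SD, n = 3). OsSPX-MFS1 had means of 2.56 ± 2.40 and 4.03 ± 1.62 RPKM in that order.

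Of the 18 tested purple acid phosphatases, enzymes that release Pi from organic compounds, 14 were positive and 4 negative (median 0.51), and 0 were called. OsPAP10c, a root-secreted phosphatase of rice, gave 28.3, 17.0 and 8.08 RPKM for WT, with 53.6, 43.2 and 44.4 for osnat10, without overlap (log2 fold change 1.54, SE 0.40, limma adjusted p = 0.11). OsPAP3c had a WT mean of 29.7 ± 5.20 and an osnat10 mean of 48.9 ± 7.24 RPKM, and the phytase-like OsPAP23 at 0.371 ± 0.242 and 1.45 ± 0.324 (SD, n = 3; limma adjusted p = 0.12 and 0.11). The lipid remodelling genes, which replace phospholipids by galactolipids and sulfolipids when Pi is short, had 8 positive and 4 negative values among the tested ones (median 0.22). Among them SQD2.2, a sulfolipid synthase gene, had WT values of 12.9, 4.66 and 8.62 RPKM and osnat10 values of 25.0, 15.1 and 21.4 (limma adjusted p = 0.13). OsMGD, a galactolipid synthase gene, gave 18.4, 9.81 and 19.6 RPKM for WT, with 26.5, 27.8 and 29.5 for osnat10 (limma adjusted p = 0.15). Both genes, which were named for their small limma p, were higher in every osnat10 library, against 17.2% of all tested genes. The other 3 named lipid genes overlapped. The digalactolipid synthase-like gene Os03g0268300 had a WT mean of 63.0 ± 18.2 and an osnat10 mean of 45.9 ± 8.04 RPKM (SD, n = 3), with a log2 fold change of -0.42 (limma adjusted p = 0.38). Os05g0387200, similar to the sulfolipid enzyme UDP-sulfoquinovose synthase, had means of 51.0 ± 25.2 and 59.1 ± 1.47 RPKM, and the phosphodiesterase-like gene Os02g0514500 had 11.1 ± 3.39 and 15.7 ± 1.53 (limma adjusted p = 0.63 and 0.28). The 10 PHR-like genes had 6 positive and 4 negative values and a median of 0.04. PHR1 had a WT mean of 19.6 ± 4.30 and an osnat10 mean of 18.1 ± 3.10 RPKM, and OsPHR4 had 14.9 ± 3.06 and 19.4 ± 1.35 (SD, n = 3). PHR3, a relative of PHR2, had 3.54 ± 1.05 and 2.30 ± 0.837 RPKM (limma adjusted p = 0.39). The PHR-like gene Os03g0325500 had WT values of 6.77, 15.0 and 9.97 RPKM and osnat10 values of 5.31, 6.25 and 6.54 (limma adjusted p = 0.24).

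**Figure D4:**
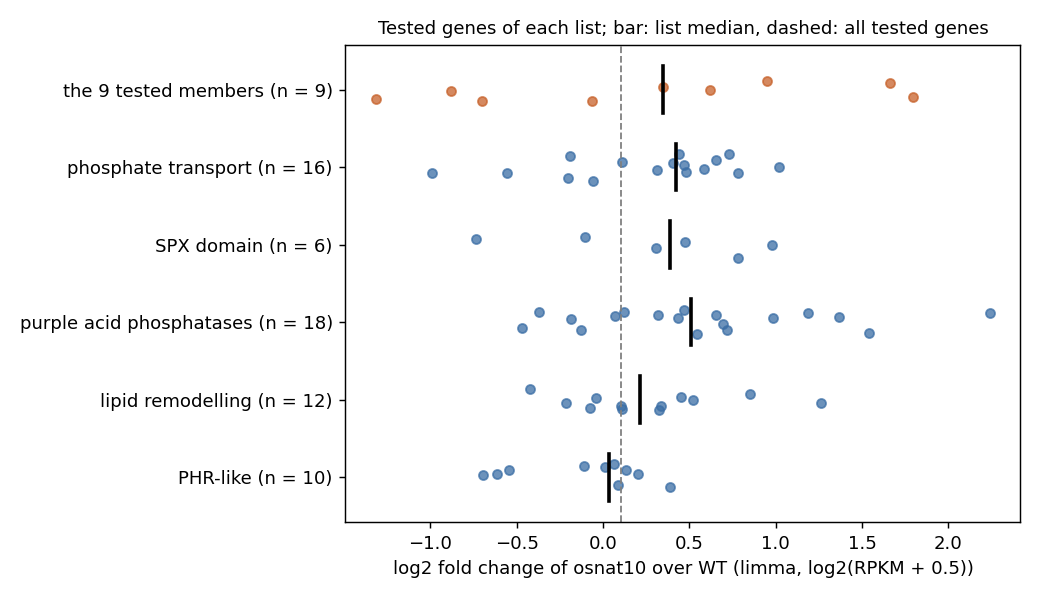
Limma log2 fold change of osnat10 over WT (horizontal axis) for the 9 tested members (orange) and the tested genes of the 5 pathway lists (blue), with a black bar at each list's median and a dashed line at the median of all tested genes, 0.11. The medians run from 0.04 for PHR-like genes to 0.51 for purple acid phosphatases, and the members spread from -1.31 to 1.80.

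For the highest transporter and the highest other member, the most similar genes over the 6 libraries were listed as a description. Nearest to PT1 on log2(RPKM + 0.5) were Os03g0678800 (glycosyl transferase family 8), OsERF#074 (similar to an ethylene response factor) and Os06g0586000, at Pearson r = 0.998, 0.998 and 0.997. OsERF#074 had WT values of 27.7, 106 and 92.3 RPKM and osnat10 values of 25.0, 27.4 and 25.3, so the likeness was carried by the gap between WT replicates 2 and 3 and the other 4 libraries. Nearest to PHR2 were OsRSP3, Os07g0250501 and Os09g0539700, at r = 0.978, 0.973 and 0.964, all with RPKM under 4, and PHR2 itself varied so little that these matches follow small differences.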

How the data were processed

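The labels list 14 libraries, and the 6 RNA-seq libraries, with 3 per genotype, were used here. The columns of the expression table carry a genotype and a replicate number and were taken as RNA-seq because it alone has 3 replicates per genotype. RPKM values were deposited by the authors for 38978 genes. Per the submitters' processing notes, IRGSP-1.0 was a build and STAR 2.5.3a, deepTools and DESeq2 were tools of the study; their roles are not listed. Not given in the sources used here are the read counter, its use of strand and its treatment of reads shared by similar gene copies, so values of close paralogues are uncertain to that extent. Of 32190 genes, the authors also deposited a mean signal (size-factor-scaled counts), a log2 fold change with its SE, a p-value and an adjusted p-value. The Wald score deposited by the authors, opposite in sign to their log2 fold change in all genes, was not used; the fold change has the sign of osnat10 over WT in the RPKM values.

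Whole reads were recovered from the RPKM steps and the authors' mean signal, within 0.05 reads, for 99.98% of the values above 0. Genes with 0.5 RPKM or more in at least 3 libraries were tested with limma 3.58.1 in R 4.3.3 on log2(RPKM + 0.5), with an intensity trend, no covariates and Benjamini-Hochberg adjustment over 24380 genes. The pseudocount makes the fold changes of low genes too small. An exact permutation test of 3 against 3 libraries cannot go below p = 0.10 (two-sided), so none was run. The replicates are labelled biological; whether they come from separate plants or cultures is not stated, so p-values measure the spread between these libraries.

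The members and lists were chosen with earlier results of these data known. Lists are word patterns on symbols and descriptions; no gene named miR399 or miR827 was matched. Named from each list were any called gene, the 3 genes of smallest limma p and the 2 of highest mean RPKM; OsPT3 and OsPT12 were named as neighbours of members, and NRT2.1, LSI1 and LSI2 are markers. Of the root markers, OsAMT1;2 matched no symbol. The reference table paired names and neighbours by synonym, in RefSeq's assembly ASM3414082v1. Python 3.11.15 (pandas 2.3.3, numpy 2.4.6, matplotlib 3.10.9) made the tables and plots.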

Additional observations from a re-analysis of the deposited data

How the results depend on the processing

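In limma, 37 genes were called (30 higher, 7 lower in osnat10). Median of ratios scaling called 107 (51 higher, 56 lower), quantile normalisation called 24 lower, library quality weights 1352 (843 and 509), voom on recovered reads 21 (14 higher), and a pseudocount of 0.1 called 19 higher. The median log2 fold change over all tested genes was 0.11 as deposited, 0.01 with median of ratios factors and -0.03 with quantile normalisation. Leaving out a library gave 8 to 2713 calls (8 to 1532 higher, 0 to 1181 lower). The number of members called was 0 in all alternatives but 2: 2 with library quality weights, and 4 without WT replicate 1, so leaving out a library gave 0 to 4. Of the other pathway genes, library quality weights called 6, against 5.55% of all tested genes, and leaving out a library gave 0 to 15, the 15 without WT replicate 1, against 11.1%. No member's log2 fold change changed sign in the alternatives run. The lowest and highest values were -1.03 and -0.52 for PT1, 1.10 (without WT replicate 3) and 2.53 for PT2, 0.58 and 2.105 for PT4, -1.35 and -0.47 for PHO2, 0.47 and 0.88 for SPX1, and -1.93 and -0.90 for SPX2. Replicate numbers gave no clear pairing of the libraries, which so few correlations cannot exclude. Same-numbered libraries correlated at -0.059, -0.026 and 0.126 in their deviations from the group means. The highest correlations of the WT libraries with osnat10 libraries of another number were 0.117, 0.076 and -0.003. With the replicate block 20 genes were called (16 higher, 4 lower) and 0 members. That limma fit had 6 members at an unadjusted p under 0.05, against 4283 of 24380 tested genes. SPX2 did not reach the filter of 1 RPKM in 3 libraries, so the stricter filter gave no value for it. The causes of these changes were not tested. The limit of depth is met by PT6, PT4 and SPX2, which rest on few reads.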
